A study of Mus musculus with 12 samples.

Results

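The genes of oxidative phosphorylation described here were 107 of the 18193 genes measured on the arrays. They were chosen by symbol alone: every gene with a probe set of a single symbol that begins with Nduf, Uqcr, Uqcc, Atp5 or Cox and a digit, or with Sdha, Sdhb, Sdhc or Sdhd, together with Cyc1 and Cycs. Of several probe sets of a gene, the one brightest on average across the 12 arrays was read, so the mean level chose the probe set and no difference between groups did. Of the 107 genes, 42 belonged to complex I, 8 to complex II, 12 to complex III, 27 to complex IV and 17 to complex V, and Cycs is cytochrome c. By role, 82 encoded subunits and 24 encoded assembly factors. The level of 100 members lay above the median level of all genes (7.20 on the log2 scale of intensity), and that of the other 7 did not.

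The respiratory chain of the inner mitochondrial membrane oxidises NADH at complex I and succinate at complex II, passes the electrons through ubiquinone to complex III, through cytochrome c to complex IV, and from there to oxygen. Complexes I, III and IV pump protons out of the matrix, and complex V, the ATP synthase, uses the return flow to make ATP. Core subunits hold the redox centres and the catalytic sites, accessory subunits stabilise the complexes, and assembly factors load cofactors and join modules without remaining in the finished enzyme. T cells that leave quiescence after antigen receptor stimulation build mitochondrial mass and raise respiration. Halofuginone (HF) blocks the enzyme that charges prolyl-tRNA and so sets off the amino acid response, and MAZ1310 is described by the submitters as a derivative of it without activity.

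All samples were CD4+ CD25- T cells of C57B/6J mice from Jackson labs, stimulated with anti-CD3 and anti-CD28 antibodies and kept in TGFb plus IL-6. They received 10 nM HF or 10 nM MAZ1310 for 3 h or 6 h, with 3 arrays in each of the 4 groups, and no group went without a compound. The comparison of HF with MAZ1310 asks what the active compound changed in these cells at each time. The labels call the replicates biological and name no animals or cultures behind them, so the p-values measure only how much these samples vary, which may be technical. Values below are log2 intensity, given for replicates 1, 2 and 3 in that order. A member is called changed at an adjusted p under 0.05, from limma with Benjamini-Hochberg adjustment over all 18193 genes, and differences are on the log2 scale with their standard error (SE).

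The arrays had median intensities between 97.3 and 102 and correlated within groups at 0.992 to 0.997, but 1 of them stood apart in these genes. Replicate 3 of the MAZ1310 3 h group was the lowest of all 12 arrays for 69 of the 107 members. It was the lowest of its own 3 arrays for 82 members (76.6%), against 40.1% of all genes and 31.1% of genes above the median level. It was the highest of its 3 arrays for 14 members, among them Atp5a1, Atp5b, Ndufs1, Ndufv1 and Sdhd. Since all groups share 1 estimate of spread, this array bears on calls at both times, and results that rest on it are given with and without it. The 9 measured T cell markers had summed intensities of 19069 to 27096 at 3 h with MAZ1310, 19900 to 24233 at 3 h with HF and 21318 to 22728 at 6 h with MAZ1310, but 14679 to 16953 at 6 h with HF. Of 22 measured markers of B, myeloid, CD8 or NK and erythroid cells, 0 were called in limma at either time and 1 had an unadjusted p under 0.05 at each; the 5 B cell markers summed to 414.3 to 530.5 over the arrays.

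**Figure D1:**
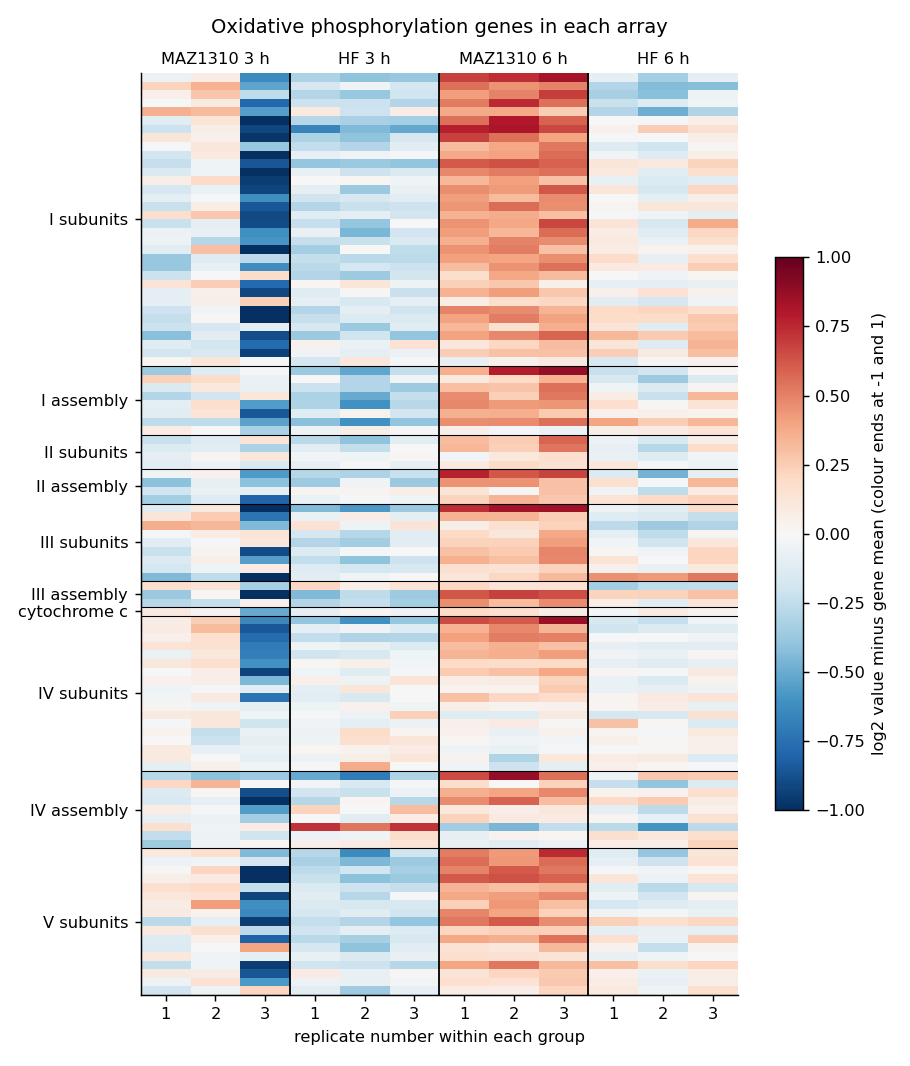
Each row is a gene and each column an array; colour gives the log2 intensity minus the mean of the gene over 12 arrays, with the ends of the scale at -1 and 1, and rows are ordered by complex and role. The 3 arrays of MAZ1310 at 6 h are the high columns for most genes, and replicate 3 of MAZ1310 at 3 h is the low column.

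At 6 h, 30 of the oxidative phosphorylation genes were called lower with HF than with MAZ1310, and 15 of these 30 belong to complex I. In limma that was 28.0% of the 107 members, with 0 called higher, against 11.7% lower and 5.22% higher among all genes. Among the 100 members above the median level 29 were called lower, against 19.5% of all genes above it. The median difference of the members was -0.33, where that of all genes was 0.02, and 97 members lay below 0, with an unadjusted p under 0.05 for 57 in either direction. For 82 members (76.6%) all 3 HF arrays lay below all 3 MAZ1310 arrays, which held for 20.4% of all genes. The median difference of replicate pairs was -0.29, -0.41 and -0.30, with 93, 97 and 94 members lower, so the direction was the same in each pair. These are bulk samples, in which fewer cells of a type and less RNA per cell cannot be told apart.

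The number of calls depended on single arrays. Without replicate 3 of MAZ1310 at 3 h, 64 members were called lower and Uqcrq was called higher, against 13.8% of all genes lower. Above the median level, 63.0% of members and 23.2% of all genes at that level were then lower. Without replicate 3 of MAZ1310 at 6 h 18 members were called, and without replicate 2 of HF at 6 h 16 were. The share of all genes called in these fits is not given here. These counts therefore do not show whether the members changed more than all genes did. Of the 30 calls, 14 held in each of the 12 fits that left out 1 array: Ndufa8, Ndufaf5, Ndufaf7, Ndufb3, Ndufb9, Ndufs3 and Ndufv3 of complex I, Sdhaf4, Uqcr11, Ndufa4, Cox15, Atp5c1, Atp5d and Atp5o. Of the 9 T cell markers, 7 were also lower with HF at 6 h (Thy1 -0.89, Cd28 -0.78, Cd3d -0.70, Cd3e -0.66, Cd3g -0.58, Cd4 -0.42 and Cd5 -0.38), or 4 without either replicate 1 or replicate 2 of HF at 6 h; their part in the result was not tested. The log2 difference between actin probes at the 3′ and 5′ ends, a sign of RNA quality, was 1.07 ± 0.261 (SD, n = 3) with HF at 6 h and 0.864 ± 0.139 with MAZ1310. With the replicate number as a block and this actin difference as a covariate, only Ndufaf7 remained called lower at 6 h. The median of the members was then -0.11, and the share of all genes called in that fit is not given here.

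**Figure D2:**
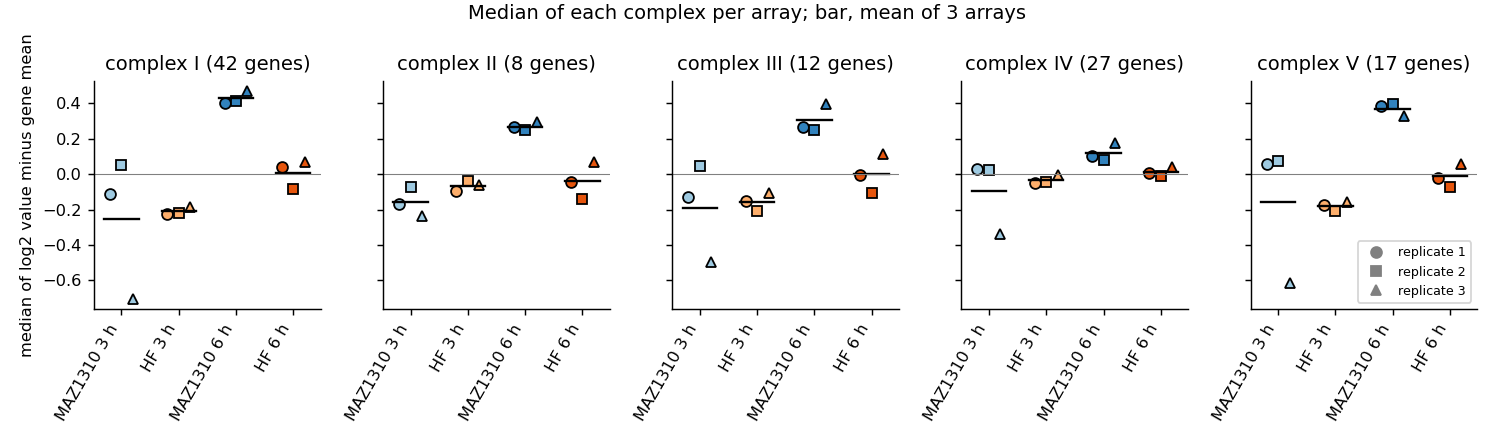
Each point is the median, over the genes of a complex, of log2 intensity minus the mean of the gene, for 1 array; symbols mark the replicate number and bars the mean of 3 arrays. In complex I the MAZ1310 6 h arrays sit at 0.40, 0.42 and 0.47 and the HF 6 h arrays at 0.04, -0.08 and 0.07, and replicate 3 of MAZ1310 at 3 h sits at -0.70.

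Members that moved together can be set beside the sequence at their start sites. Windows of 300 bases (250 before the start and 50 after it, RefSeq, GRCm38.p6) were at hand for 88 members, 94 windows in all. The letters GCATGCGC or GCGCATGC, bound by NRF1, stood in 12.8% of member windows, against 2.71% of 32851 windows of all genes and 4.04% of those of tested genes. The ETS letters CCGGAAG or CTTCCGG stood in 28.7%, against 8.86% and 13.0%, and the YY1 letters AAGATGGCG or CGCCATCTT in 8.5%, against 1.4% and 2.09%. The C/EBP-ATF element TGATGNAAN, searched on both strands, stood in 0 of 94 member windows, against 3.95% and 2.71%. No matches of different motifs overlapped. Of the 38 members with an NRF1, ETS or YY1 match, 8 were lower with HF at 6 h, and of the 50 with no match, 20 were. Among the genes of these factors, Gabpb1, the partner of the ETS factor Gabpa, was called at 6 h and was higher with HF by 0.69 ± 0.14 (adjusted p 0.002). Nrf1 differed by 0.15 ± 0.09 (0.346), Gabpa by -0.04 ± 0.12 (0.878) and Yy1 by 0.02 ± 0.09 (0.933). A match is a description of letters and not a site shown to be bound. The 200 bases before the start of 5 members are shown because these genes carry results below: Uqcr11, Ndufa8 and Sdhb were lower at 6 h, Atp5e turned on 1 array, and Cox7a2l was higher at 3 h. They run 5′ to 3′ on the strand of the gene, with a match in capitals.
Uqcr11, chr10:80406822-80407021, minus strand, ETS 66 bases before the start: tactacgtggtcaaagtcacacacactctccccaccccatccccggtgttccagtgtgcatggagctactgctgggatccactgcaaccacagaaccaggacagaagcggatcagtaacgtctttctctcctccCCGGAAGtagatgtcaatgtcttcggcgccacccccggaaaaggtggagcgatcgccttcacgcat
Ndufa8, chr2:36049339-36049538, minus strand, NRF1 8 bases before the start: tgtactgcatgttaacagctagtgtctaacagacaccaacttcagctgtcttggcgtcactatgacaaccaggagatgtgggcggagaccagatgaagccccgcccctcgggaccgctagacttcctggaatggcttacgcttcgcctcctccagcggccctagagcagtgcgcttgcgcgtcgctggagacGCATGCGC
Sdhb, chr4:140961071-140961270, plus strand, NRF1 54 bases before the start: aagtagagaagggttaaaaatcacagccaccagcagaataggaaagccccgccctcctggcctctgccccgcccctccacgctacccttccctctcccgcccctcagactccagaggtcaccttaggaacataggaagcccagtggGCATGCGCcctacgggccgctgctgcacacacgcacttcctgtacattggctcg
Atp5e, chr2:174464102-174464301, minus strand, ETS on the reverse strand 102 bases before the start: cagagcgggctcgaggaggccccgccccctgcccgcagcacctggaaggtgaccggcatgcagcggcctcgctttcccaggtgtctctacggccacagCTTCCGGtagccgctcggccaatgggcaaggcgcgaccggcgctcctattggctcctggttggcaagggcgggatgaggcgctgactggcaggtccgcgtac
Cox7a2l, chr17:83514334-83514533, minus strand, no match: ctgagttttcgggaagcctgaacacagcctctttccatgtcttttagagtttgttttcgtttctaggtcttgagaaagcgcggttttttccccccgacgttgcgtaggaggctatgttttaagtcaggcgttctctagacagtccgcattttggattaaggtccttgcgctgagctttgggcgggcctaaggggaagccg
Uqcr11 also held an NRF1 match from 4 bases before the start, which runs past the printed end, and Sdhb an ETS match 7 bases after the start.

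In complex I, 15 of 42 genes were lower with HF at 6 h (35.7%), with a median of -0.38 and 36 genes whose HF arrays all lay below the MAZ1310 arrays. The calls fell in all 3 roles: 2 of 6 core subunits, 10 of 28 accessory subunits and 3 of 8 assembly factors. Without replicate 3 of MAZ1310 at 3 h, 32 of the 42 genes of complex I were called lower (76.2%), or 5 core subunits, 22 accessory subunits and 5 assembly factors, with a median of -0.38. Ndufb9, an accessory subunit of the membrane arm, read 9.84, 9.61 and 9.85 with HF at 6 h and 10.63, 10.68 and 10.78 with MAZ1310. The 2 groups were far apart, and the HF arrays at 6 h stayed near those at 3 h (9.62, 9.54 and 9.57). Ndufb9 was lower by 0.93 on the log2 scale, a 1.9-fold difference (log2 -0.93 ± 0.14, adjusted p 0.000231). A second bright probe set of Ndufb9 gave -0.95 and a dim one 0.09.

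Ndufv3, an accessory subunit beside the NADH-binding module, read 9.83, 9.69 and 9.70 with HF at 6 h and 10.67, 10.57 and 10.62 with MAZ1310. Its difference of -0.88 ± 0.16 (adjusted p 0.00107) was 1.84-fold. Ndufa8, an accessory subunit on the intermembrane side, read 10.30, 10.21 and 10.58 against 11.05, 11.12 and 11.33, with no overlap (-0.81 ± 0.13, adjusted p 0.000377). Ndufaf7, an assembly factor of complex I, read 7.12, 7.15 and 7.36 against 7.70, 8.13 and 8.21 (-0.81 ± 0.13, adjusted p 0.00045). In Ndufv3 and Ndufaf7 as well, every HF array lay below every MAZ1310 array. Ndufb3, an accessory subunit of the membrane arm, read 9.41, 9.51 and 9.59 against 10.16, 10.38 and 10.19 (-0.74 ± 0.16, adjusted p 0.00468).

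Other calls of complex I were less firm. Ndufb10 read 8.78, 8.59 and 8.77 with HF at 6 h against 9.46, 9.46 and 9.33 (-0.70 ± 0.18, adjusted p 0.0119), and 0.0535 without replicate 2 of HF at 6 h. Ndufc2 read 11.71, 11.92 and 11.82 against 12.44, 12.49 and 12.34 (-0.61 ± 0.17, adjusted p 0.0222). The Ndufc2 call was lost without any 1 of replicates 1 and 2 of MAZ1310 or replicates 1 and 3 of HF at 6 h, with adjusted p up to 0.0894. Ndufs5 read 8.80, 8.78 and 8.85 against 9.35, 9.60 and 9.38, again with no overlap (-0.63 ± 0.21, adjusted p 0.0487). For Ndufs5 the call was lost in 10 of the 12 fits without 1 array, with adjusted p up to 0.174; it held without replicate 2 or replicate 3 of MAZ1310 at 3 h.

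The 6 core subunits of complex I, among them the carriers of its flavin and iron-sulfur clusters, had a median of -0.29, and the 28 accessory subunits one of -0.39. Ndufs3, a core subunit of the matrix arm, read 10.22, 10.15 and 10.37 with HF at 6 h and 10.67, 10.74 and 10.88 with MAZ1310 (-0.52 ± 0.11, adjusted p 0.00454). Ndufv1, which holds the flavin and binds NADH, read 9.75, 9.71 and 9.76 against 9.92, 10.13 and 10.06. Its arrays did not overlap, yet the difference of -0.29 ± 0.10 missed the threshold (adjusted p 0.0557), and passed it with the replicate number as a block (0.0284) or without replicate 3 of MAZ1310 at 3 h (0.0211). Ndufs1, the large iron-sulfur subunit, read 9.66, 9.61 and 9.74 against 9.84, 9.94 and 9.98 (-0.25 ± 0.09, adjusted p 0.0678; 0.0378 with the block and 0.0262 without that array). Ndufs7, an iron-sulfur subunit next to the ubiquinone site, read 10.83, 10.77 and 10.82 against 10.91, 10.98 and 11.09, a difference of -0.18 with a 95% interval from -0.49 to 0.12. Ndufaf6, an assembly factor, read 8.68, 8.53 and 8.62 against 8.75, 8.76 and 8.84, a difference of -0.17 with an interval from -0.37 to 0.03.

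**Figure D3:**
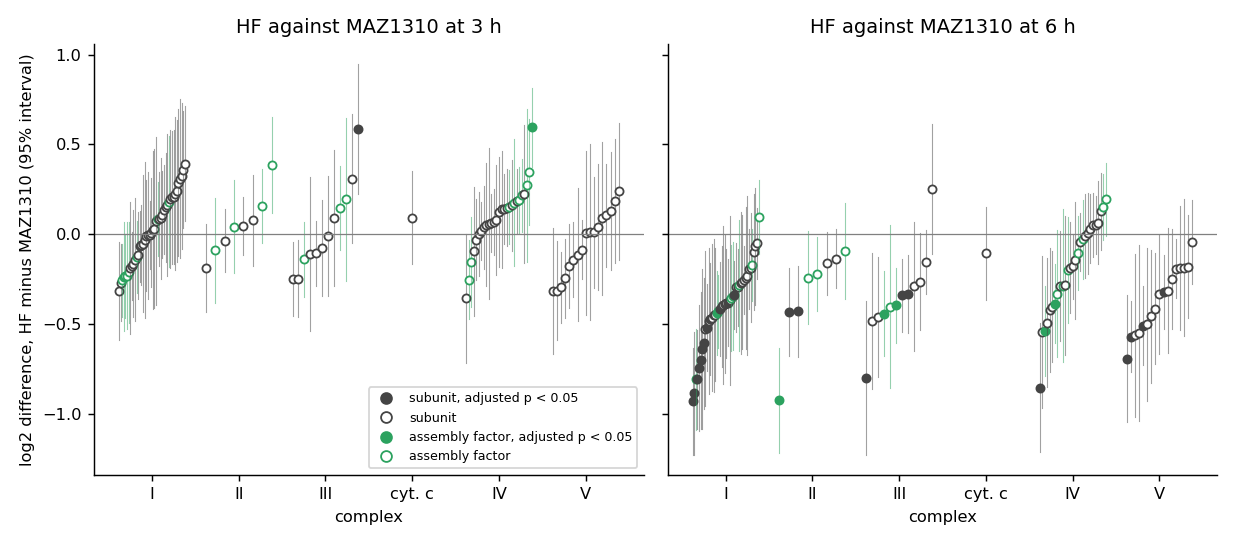
Each point is a gene and gives its log2 difference of HF against MAZ1310 with a 95% interval, at 3 h and at 6 h, by complex; filled points have an adjusted p under 0.05, subunits and cytochrome c are grey and assembly factors green. At 6 h 97 of 107 points lie below 0, and at 3 h 43 do.

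Complex II, the only complex with no mitochondrially encoded subunit, had 3 of 8 genes lower at 6 h (median -0.23). Its largest difference was in Sdhaf4, an assembly factor that binds the flavoprotein subunit Sdha. Sdhaf4 read 7.64, 7.31 and 7.69 with HF at 6 h against 8.55, 8.40 and 8.46 with MAZ1310, groups that lay far apart, and was 1.9-fold lower (log2 -0.92 ± 0.14, adjusted p 0.000196). Sdhb, the iron-sulfur subunit, read 10.85, 10.65 and 11.11 against 11.26, 11.17 and 11.46 (-0.43 ± 0.12, adjusted p 0.0186). The Sdhb call was lost without replicate 3 of MAZ1310 or replicates 1 or 2 of HF at 6 h, with adjusted p up to 0.11. Sdhd, a membrane anchor, read 10.23, 10.13 and 10.35 against 10.60, 10.54 and 10.87 (-0.43 ± 0.11, adjusted p 0.0148), and its call was lost without replicate 3 of MAZ1310 or replicate 2 of HF at 6 h (up to 0.0847). In both genes every HF array lay below every MAZ1310 array. Sdha, the flavoprotein that oxidises succinate, read 10.94, 10.89 and 10.99 against 10.99, 11.13 and 11.18, a difference of -0.16 with an interval from -0.33 to 0.01. Sdhc, the other anchor, read 10.39, 10.27 and 10.22 against 10.37, 10.48 and 10.43, with overlap, and differed by -0.13 (interval -0.30 to 0.03).

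In complex III, 5 of 12 genes were lower at 6 h (median -0.37), and 11 had no overlap between the groups in that direction. Without replicate 3 of MAZ1310 at 3 h, 8 were called lower (66.7%) and 1 higher. Uqcr11, a small accessory subunit, read 9.91, 9.85 and 10.13 with HF at 6 h and 10.70, 10.79 and 10.80 with MAZ1310 (-0.80 ± 0.20, adjusted p 0.0109). Uqcrfs1, the Rieske iron-sulfur protein, read 12.05, 11.89 and 12.17 against 12.34, 12.26 and 12.53 (-0.34 ± 0.10, adjusted p 0.0218). The Uqcrfs1 call was lost without replicate 3 of MAZ1310 or replicates 1 or 2 of HF at 6 h (up to 0.121), and the nearest arrays of the 2 groups lay at 12.17 and 12.26. Cyc1, cytochrome c1, read 11.88, 11.74 and 11.96 against 12.10, 12.05 and 12.22, a difference of -0.26 with an interval from -0.53 to 0.01 that missed the threshold.

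The 3 Uqcc genes, which act on cytochrome b before it enters complex III, differed in how firm their values were. Uqcc1 read 8.49, 8.31 and 8.54 with HF at 6 h against 8.89, 8.73 and 8.89 with MAZ1310 (-0.39 ± 0.10, adjusted p 0.0101), and lost its call without replicate 2 of HF at 6 h (0.0605). The call of Uqcc1 also rested on its probe set. The mean of its probe sets gave -0.14, and the brightest one without an _s, _x or _a suffix gave -0.07. Uqcc3 read 8.34, 8.43 and 8.43 against 8.88, 8.81 and 8.82 (-0.44 ± 0.11, adjusted p 0.0107), and 0.0505 without replicate 1 of HF at 6 h. Uqcc2 read 11.00, 11.01 and 11.07 against 11.40, 11.46 and 11.42, groups with no overlap and little spread at that time. Its difference of -0.40 ± 0.21 was not called (adjusted p 0.255) with all arrays and was called without replicate 3 of MAZ1310 at 3 h (0.00626), where Uqcc2 read 9.49 beside 10.41 and 10.80. Cycs, cytochrome c itself, read 13.35, 13.43 and 13.39 against 13.55, 13.51 and 13.42 and differed by -0.10, with an interval from -0.36 to 0.15.

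Complex IV had 3 of 27 genes lower at 6 h, with a median of -0.18. All HF arrays lay below the MAZ1310 arrays in 15 genes (55.6%, against 20.4% of all genes) and above them in 3. The share called lower, 11.1%, is near the 11.7% of all genes. Without replicate 3 of MAZ1310 at 3 h, 10 of the 27 were called lower (37.0%). Of all genes 13.8% were then lower, and of all genes above the median level 23.2% were. The 8 isoforms of other tissues (Cox4i2, Cox6a2, Cox6b2, Cox7a1, Cox7b2, Cox8b, Cox8c and Ndufa4l2) had a median of 0.04, and limma called 0 of them in any comparison (unadjusted p under 0.05 for 0 at 6 h and 1 at 3 h). The other 10 subunits had a median of -0.34, and 9 had no overlap, but only Ndufa4 was called. Ndufa4, a subunit of complex IV named when it was taken for one of complex I, read 11.25, 11.18 and 11.38 with HF at 6 h against 12.06, 12.02 and 12.27 (-0.85 ± 0.17, adjusted p 0.002). Cox4i1, the main isoform of subunit IV, read 12.39, 12.32 and 12.50 against 12.54, 12.54 and 12.69 and differed by -0.18 (interval -0.44 to 0.07). Cox5a read 12.59, 12.64 and 12.69 against 12.85, 12.77 and 12.74 and differed by -0.14 (interval -0.47 to 0.18). With all arrays Ndufa4 was thus the 1 call among these 10 subunits, and without replicate 3 of MAZ1310 at 3 h 7 of the 10 were called lower.

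Of the 9 assembly factors of complex IV, 2 were called lower at 6 h (median -0.20). Cox15, which makes heme a from heme o, read 7.01, 7.33 and 7.32 with HF against 7.72, 7.94 and 7.62 (-0.54 ± 0.12, adjusted p 0.00417). Cox10, which makes heme o in the step before, read 9.33, 9.28 and 9.34 against 9.09, 9.21 and 9.19, so its HF arrays lay above the others. The difference of Cox10, 0.15 ± 0.09, was not called (adjusted p 0.294). Cox19, a copper-handling protein, had a difference of -0.39, a call lost without replicates 1 or 3 of MAZ1310 or replicate 2 of HF at 6 h (adjusted p up to 0.0866).

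Complex V had 4 of 17 genes lower at 6 h (median -0.33), and 16 had no overlap between the groups in that direction. Without replicate 3 of MAZ1310 at 3 h, 11 of the 17 were called lower (64.7%). With all arrays the calls were Atp5c1 and Atp5d among the 5 subunits of the F1 head and Atp5o and Atp5g3 among the other 12. Atp5c1, the gamma subunit that turns inside the head, read 11.46, 11.35 and 11.70 with HF at 6 h and 12.11, 11.99 and 12.11 with MAZ1310 (-0.57 ± 0.09, adjusted p 0.000476). Its brightest probe set without an _s, _x or _a suffix gave -0.10, so the call rests on the probe set used. Atp5d, the delta subunit of the central stalk, read 12.07, 11.91 and 12.02 against 12.52, 12.49 and 12.52 (-0.51 ± 0.10, adjusted p 0.0024). Atp5o, the protein that joins the head to the outer stalk, read 10.81, 10.54 and 11.05 against 11.44, 11.35 and 11.67 (-0.69 ± 0.17, adjusted p 0.00782). None of these 3 genes had overlapping groups at 6 h. Atp5g3, a gene for the ring subunit c, read 13.18, 13.19 and 13.18 against 13.49, 13.51 and 13.51 (-0.32 ± 0.10, adjusted p 0.0331), and its call was lost without any 1 of the 6 arrays of that time (up to 0.095).

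The catalytic subunits of the F1 head, alpha and beta, were not among the calls. Atp5b read 13.01, 12.87 and 13.08 with HF at 6 h against 12.98, 12.98 and 13.13, with full overlap, and its difference of -0.04 had an interval from -0.28 to 0.19. Atp5a1, the alpha subunit, read 12.44, 12.16 and 12.43 against 12.54, 12.51 and 12.72 (-0.25 ± 0.13, adjusted p 0.247). Atp5e, the epsilon subunit, read 11.61, 11.43 and 11.62 against 12.11, 12.13 and 12.08, a clear gap. Its difference of -0.55 ± 0.23 was not called (adjusted p 0.131), and was called without replicate 3 of MAZ1310 at 3 h (0.000143), where Atp5e read 10.31 beside 11.55 and 11.57 in replicates 1 and 2.

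**Figure D4:**
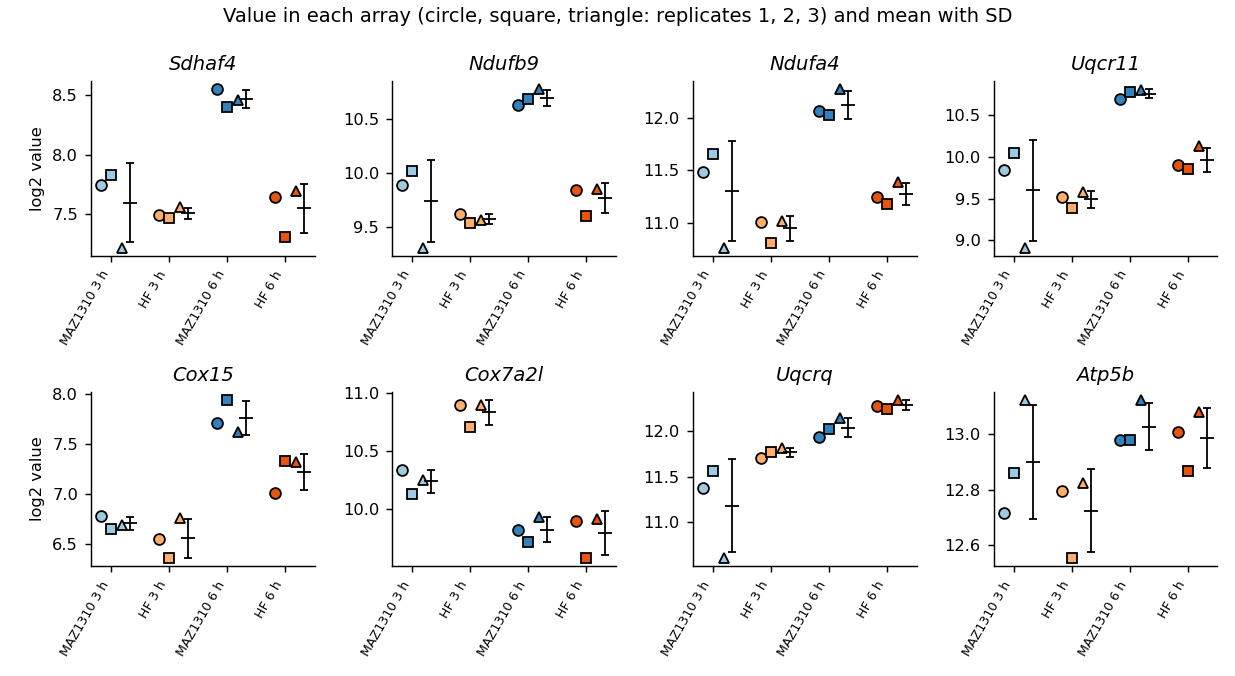
Each panel is a gene and gives log2 intensity of the 12 arrays by group, with the mean and SD of 3 arrays. Sdhaf4, Ndufb9, Ndufa4, Uqcr11 and Cox15 are high with MAZ1310 at 6 h, Cox7a2l is high with HF at 3 h, Uqcrq is higher with HF at both times, and the groups of Atp5b overlap at 6 h.

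At 3 h few of the genes differed between the compounds. Limma called 2 members higher with HF and 0 lower, against 2.83% higher and 6.66% lower among all genes, and 18 members had an unadjusted p under 0.05. The median difference was 0.04, that of all genes 0.03. The replicate pairs disagreed at this time, with medians of -0.08, -0.21 and 0.44, and 76, 86 and 17 members lower. The third pair holds the MAZ1310 array that stood apart. Without that array, 16 members were lower (15.0%, against 5.68% of all genes), 1 was higher and the median was -0.11. Above the median level, 16.0% of members and 10.3% of all genes at that level were then lower. Of the 16 lower members, 8 were in complex I, 5 in complex V, 2 in complex IV and 1 in complex III. The 16 were Ndufa1, Ndufa8, Ndufaf2, Ndufb6, Ndufb9, Ndufc2, Ndufs5, Ndufv3, Uqcr11, Cox6c, Ndufa4, Atp5d, Atp5e, Atp5g3, Atp5k and Atp5md, with differences from -0.27 in Atp5g3 to -0.62 in Ndufa4. With the replicate number as a block, 3 members were higher and 3 lower, which added Sdhaf1, Atp5a1, Atp5c1 and Uqcrc2. The share of all genes called with the block is not given here. Actin probes differed between the 3′ and 5′ ends by 1.25 ± 0.279 (SD, n = 3) with HF and 1.03 ± 0.220 with MAZ1310 at 3 h. With the block and this actin difference as a covariate, the median was 0.29, and Cox7a2l was called and Uqcrq was not (adjusted p 0.128).

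The call at 3 h that did not rest on 1 array was Cox7a2l, a factor that helps complexes III and IV join into supercomplexes. Cox7a2l read 10.90, 10.71 and 10.90 with HF at 3 h and 10.34, 10.13 and 10.25 with MAZ1310, so every HF array lay above every MAZ1310 array. It was 1.51-fold higher (log2 0.59 ± 0.10, adjusted p 0.00173), and the call held in all 12 fits without 1 array (0.60 and 0.00464 without replicate 3 of MAZ1310 at 3 h). All 3 probe sets of Cox7a2l carry an _s, _x or _a suffix, so it has no value in the setting without such probe sets. The one used ends in _x, a mark of possible cross-hybridisation, and the other probe sets gave 0.66 and 0.62 at 3 h. Uqcrq, a small subunit of complex III, read 11.71, 11.78 and 11.82 against 11.37, 11.56 and 10.60, also with no overlap (0.59 ± 0.17, adjusted p 0.0416). The Uqcrq call was lost in 10 of 12 fits without 1 array, and without replicate 3 of MAZ1310 at 3 h the difference fell to 0.30 (adjusted p 0.0553). At 6 h Uqcrq read 12.28, 12.25 and 12.35 against 11.94, 12.03 and 12.15, again higher in every HF array. It was not called (0.25 ± 0.17, adjusted p 0.391), though it was without that same array (0.0378) or in a fit of the 6 arrays of that time (0.039). The brightest probe set of Uqcrq without an _s, _x or _a suffix gave 0.49 at 6 h and was called in limma (adjusted p 0.0228). Its probe sets differed by over 0.5 at 3 h. Sdhaf1, which helps insert iron-sulfur clusters into Sdhb, read 10.29, 10.34 and 10.31 against 10.01, 10.22 and 9.55 at 3 h. Its difference of 0.39 ± 0.12 was not called (adjusted p 0.0669), was called with the block (0.0376) or without replicate 2 of MAZ1310 at 3 h (0.0111), and was 0.20 (0.194) without replicate 3.

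Between 3 h and 6 h most of these genes rose in cells given MAZ1310. Limma called 64 members higher (59.8%) and 1 lower, against 12.1% higher and 7.64% lower among all genes and 20.5% higher among genes above the median level. The median rise was 0.55, where that of all genes was -0.01, and 77 members (72.0%) had every 6 h array above every 3 h array, against 17.5% of all genes. The rise covered 34 of 42 genes of complex I (median 0.68), 6 of 8 of complex II (0.51), 7 of 12 of complex III (0.50), 8 of 27 of complex IV (0.24) and 9 of 17 of complex V (0.55). Without replicate 3 of MAZ1310 at 3 h 60 members were higher with a median of 0.36, where 12.3% of all genes were higher. The medians were then 0.47, 0.50, 0.39, 0.13 and 0.30 in complexes I to V. Above the median level, 59.0% of members and 21.1% of all genes at that level were higher. With the replicate number as a block and the actin difference as a covariate, 20 members were called, all of them among the 65. The share of all genes called in that fit is not given here. The actin difference was 1.03 ± 0.220 (SD, n = 3) at 3 h and 0.864 ± 0.139 at 6 h with MAZ1310. This comparison shares the MAZ1310 arrays at 6 h with the comparison of HF at 6 h, so the values of both are set side by side here and not taken as separate support.

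The largest rises with MAZ1310 were in genes of several complexes. Uqcc2 read 10.41, 10.80 and 9.49 at 3 h and 11.40, 11.46 and 11.42 at 6 h (1.20 ± 0.21, adjusted p 0.00075; 0.83 without replicate 3 at 3 h). Uqcr11 read 9.84, 10.05 and 8.91 and then 10.70, 10.79 and 10.80 (1.16 ± 0.20, adjusted p 0.000601; 0.81 without that array). Ndufc2 read 11.45, 11.73 and 10.76 and then 12.44, 12.49 and 12.34 (1.11 ± 0.17, adjusted p 0.000238; 0.83 without it). In these 3 genes replicate 3 was the low array at 3 h, and the 6 h arrays lay close together. Cox15 rose with no such spread, from 6.78, 6.66 and 6.70 to 7.72, 7.94 and 7.62 (1.05 ± 0.12, adjusted p 1.42e-05). Ndufaf6 rose from 8.03, 8.03 and 7.75 to 8.75, 8.76 and 8.84 (0.84 ± 0.09, adjusted p 1.38e-05). Cox7a2l was the 1 member that fell, from 10.34, 10.13 and 10.25 to 9.82, 9.72 and 9.93 (-0.41 ± 0.10, adjusted p 0.00884).

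Some of the genes also rose between 3 h and 6 h in cells given HF. Limma called 14 members higher and 2 lower, against 8.33% higher and 7.27% lower among all genes, and the median change was 0.12. Above the median level, 13 of 100 members were called higher, and 1354 of all 9096 genes at that level were. By this count the members were not called higher more often than genes of like level. All 3 arrays at 6 h lay above those at 3 h for 46 members (43.0%), against 17.0% of all genes. Without replicate 3 of MAZ1310 at 3 h the 16 calls became 38, of which 33 were higher and 5 lower. Among all genes 10.5% were then higher and 8.52% lower. Above the median level, 32.0% of members and 18.9% of all genes at that level were higher, and 5.0% and 13.9% were lower. The 16 calls became 7, 9 and 8 without replicates 1, 2 and 3 of HF at 3 h. Without either replicate 1 or replicate 3 of HF at 6 h they became 6. For the fits without 1 HF array the share of all genes called is not given here. Ndufaf6 rose from 7.87, 7.68 and 7.90 to 8.68, 8.53 and 8.62 (0.80 ± 0.09, adjusted p 2.78e-05), beside its rise of 0.84 with MAZ1310. Ndufs7 rose from 10.13, 10.30 and 10.11 to 10.83, 10.77 and 10.82 (0.63 ± 0.14, adjusted p 0.00574). Cox15 rose by 0.66 ± 0.12 (adjusted p 0.000963) and Ndufc2 by 0.69 ± 0.17 (0.0112; 0.0587 without replicate 1 of HF at 3 h). These 4 genes were called higher under both compounds. Uqcc3 fell with HF, from 8.89, 8.73 and 8.82 to 8.34, 8.43 and 8.43 (-0.41 ± 0.11, adjusted p 0.0168; lost without replicate 1 of HF at either time), and differed by 0.17 ± 0.11 with MAZ1310.

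**Figure D5:**
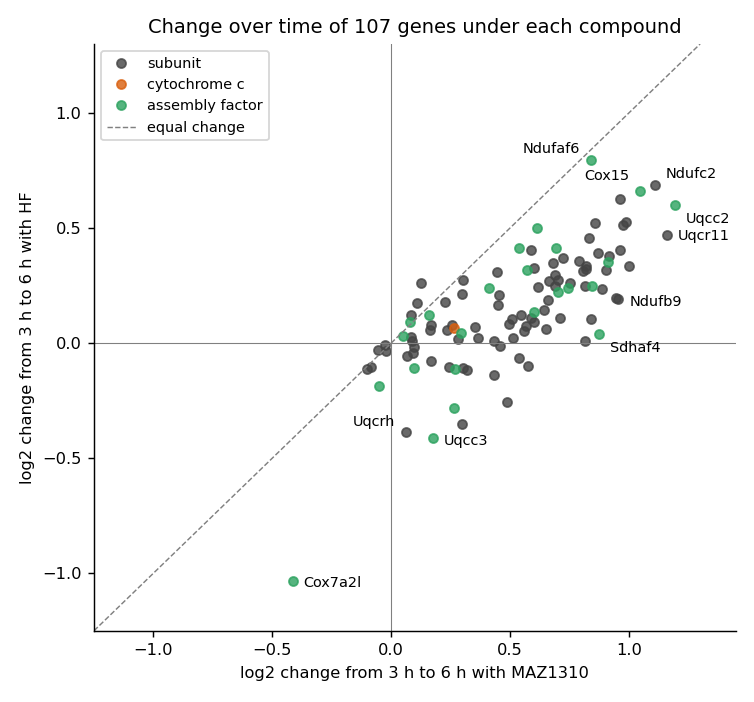
Each point is a gene and sets its log2 change from 3 h to 6 h with MAZ1310 (horizontal) against that with HF (vertical); grey points are subunits, green ones assembly factors and the orange one cytochrome c, and the dashed line marks equal change. Of 107 points, 101 lie below the line, and Cox7a2l is the point at -0.41 and -1.04.

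The difference between the HF effects at 6 h and at 3 h was below 0 for 101 of 107 members, with a median of -0.40, or -0.18 without replicate 3 of MAZ1310 at 3 h. Limma called 2 members at the adjusted threshold, Sdhaf4 and Cox7a2l, and 34 had an unadjusted p under 0.05; among all genes 1.8% were called in either direction. Sdhaf4 did not differ beyond its spread at 3 h, where it read 7.49, 7.47 and 7.56 with HF and 7.74, 7.83 and 7.22 with MAZ1310 (-0.09, interval -0.38 to 0.20), and was lower at 6 h. The difference of its effects was -0.83 ± 0.19 (adjusted p 0.0428), with adjusted p up to 0.111 in the 8 of 12 fits without 1 array that lost the call. Cox7a2l was higher with HF at 3 h and read 9.90, 9.58 and 9.91 against 9.82, 9.72 and 9.93 at 6 h, where the groups overlapped (-0.03, interval -0.25 to 0.19). Its difference of effects was -0.62 ± 0.15 (adjusted p 0.045), and 9 of 12 fits without 1 array lost the call, with adjusted p up to 0.127; without replicate 3 of MAZ1310 at 3 h it was 0.0594. From 3 h to 6 h Cox7a2l fell by 1.04 on the log2 scale with HF (-1.04 ± 0.10, adjusted p 7.07e-06). Ndufb9 had a difference of effects of -0.77 ± 0.20 that missed the threshold (adjusted p 0.0691) and passed it without replicate 3 of MAZ1310 at 3 h. With the replicate number as a block 5 members were called, the others being Ndufb9, Ndufaf7 and Uqcc3. The share of all genes called in that fit is not given here.

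Genes of the pathway whose symbols fall outside the rule, chiefly further assembly factors and regulators, were measured for 37 of 40 listed. At 6 h 15 of them were lower with HF and 0 higher, with a median of -0.28, where 11.7% of all genes were lower and 5.22% higher. At 3 h 5 were lower and 0 higher, where 6.66% of all genes were lower, and 16 had an unadjusted p under 0.05. Atpif1, the inhibitor that binds complex V when the membrane potential falls, was lower by 1.03 at 6 h (-1.03 ± 0.18, adjusted p 0.000677). Coa6, which delivers copper to complex IV, was lower at both times (-0.57 ± 0.13 and adjusted p 0.01 at 3 h, -0.99 ± 0.13 and 5.64e-05 at 6 h). Atp23, a protease and chaperone for complex V, was lower by more at 3 h (-1.33 ± 0.12, adjusted p 6.64e-06) than at 6 h (-0.81 ± 0.12, 0.000194), although that difference of 0.52 ± 0.17 was not called (0.162). These 3 genes kept their 6 h calls in all 12 fits without 1 array. Among the 15, Slirp lost its call in 9 of the 12 fits, Nubpl and Oxa1l in 4 each and Higd1a in 2. The others of the 15 kept theirs. At 3 h only Lrpprc lost its call, in 4 of the 12 fits. Surf1, an early factor of complex IV, differed by 0.01 at 6 h and Sco1, a copper chaperone, by 0.15, and neither was called. Of 26 listed mitochondrially encoded genes only ND5 was measured, and it differed by -0.01 at 6 h.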

How the data were processed

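Per the labels' protocols, RNA was isolated with Trizol and columns, and biotin-labelled RNA of each sample was read on 1 Affymetrix array. The deposited values are linear probe set intensity, which the authors made with RMA, per the submitters' processing notes; its version is not given in the sources used here. RMA equalises the distributions of the arrays, so a shift of all transcripts would not appear. The number of arrays limits the precision, and no detection calls were used.

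Of 45101 probe sets, 64 were controls, 34945 carried a single symbol, 932 several and 9160 none in the annotation table; members came from 214 single-symbol probe sets, and 11 more with several symbols were left out. Of the member genes, 62 had more than 1 probe set, and those of 9 genes differed by over 0.5 at 6 h (Atp5g1, Atp5j2, Cox5b, Cox8a, Ndufab1, Ndufb9, Ndufc2, Ndufs8 and Uqcr10). Log2 intensity was fitted with limma 3.58.1 in R 4.3.3 (lmFit, eBayes; 4 group means, all 12 arrays), and p-values were adjusted by Benjamini-Hochberg over 18193 genes; the fit was tested on simulated data.

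Arrays of equal replicate number deviated together between HF and MAZ1310 (correlations 0.242, 0.381 and 0.266 at 3 h and 0.287, 0.381 and 0.391 at 6 h), so the replicate number served as a block in an alternative. Members to be named with full values were the 10 largest increases and 14 largest decreases called in each comparison of HF with MAZ1310. Added were the 5 largest calls of the other comparisons, the largest 6 h difference of each complex, and classes of 5 or fewer members. A list of central subunits and factors completed the rule. Of these genes, Ndufs4, Sdhaf2, Sdhaf3, Cox4i2, Cox17, Ndufa4l2, Atp5g1 and Atp5g2 are left without array values here. They were not called with HF against MAZ1310 at either time, and differed at 6 h by -0.33 (Atp5g2) to 0.05 (Ndufa4l2). Without replicate 3 of MAZ1310 at 3 h, limma called Atp5g1 and Atp5g2 lower at 6 h (adjusted p 0.0314 and 0.00604). Ndufs3 and further genes named beside counts or motifs were chosen after their values were seen. The members, gene lists and alternatives were chosen with earlier results of these data known. The lists covered pathway genes outside the symbol rule, mitochondrially encoded genes, the TCA cycle, mitochondrial gene expression, coenzyme Q, import, the amino acid response and markers of T, B, myeloid, CD8 or NK and erythroid cells.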

Additional observations from a re-analysis of the deposited data

Results flagged for a closer look

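The effect of HF differed between 3 h and 6 h in 2 of 107 members by limma's test of the difference itself, a share (1.87%) near the 1.8% of all genes called. Sdhaf4 had a difference of effects of -0.83, as it was lower with HF at 6 h (-0.92) and not called at 3 h (-0.09). Cox7a2l had a difference of effects of -0.62, as it was higher with HF at 3 h (0.59) and not called at 6 h (-0.03). Their adjusted p-values were 0.0428 and 0.045, and most fits without 1 array lost these calls.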

How the results depend on the processing

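Results were recomputed under 22 settings, and the direction of the members' median at 6 h was the same in each. Beside counts under these settings, the share of all genes is given only for the fit without replicate 3 of MAZ1310 at 3 h. Without that share, a count does not show whether the members changed more than all genes did. At 6 h the 30 calls became 40 with the replicate number as a block, which kept all 30, 1 with the block and the actin difference, 68 in a fit of the 6 arrays of that time, and 9 to 65 without 1 array or 1 replicate number. The brightest probe set without an _s, _x or _a suffix gave 20, of which 17 were among the 30. Members with only suffixed probe sets had no value in that setting and could not be called. The median of -0.33 became -0.27 with the mean of probe sets, -0.27 with the brightest probe set without a suffix, -0.11 with the block and actin, and -0.37 to -0.28 with arrays left out. At 3 h the 2 calls became 4 over genes above the median level, 6 with the block, 1 with the block and actin, 1 in a fit of the 6 arrays, and 1 to 17 with arrays left out; the median of 0.04 became 0.29 with the block and actin and -0.13 to 0.17 with arrays left out. The 2 differences of effects became 1 with cyclic loess, 1 with the mean of probe sets, 1 without suffixed probe sets, 5 with the block, 6 with the block and actin, and 0 to 5 with arrays left out. The 65 calls over time with MAZ1310 became 20 with the block and actin and 39 to 75 with arrays left out. The 16 over time with HF became 10 with cyclic loess, 9 without suffixed probe sets, 4 with the block and actin, and 3 to 38 with arrays left out. At 3 h 2 differences reversed without replicate 3 of MAZ1310: Atp5e lay between -0.41 and 0.26 and Ndufs5 between -0.33 and 0.28 over the fits with arrays left out. Of 47 named members, Uqcrq lost its 3 h call under at least 1 setting. Of the named members called at 6 h, 20 lost the call under at least 1 setting, and only Ndufaf7 kept it wherever it had a value. The only probe set of Ndufaf7 carries an _s suffix, so the setting without suffixed probe sets could not test its call. The causes were not tested.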

Other observations

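Other mitochondrial genes were read from the same fit at 6 h, where 11.7% of all genes were lower with HF and 5.22% higher. Of 21 measured genes of the TCA cycle and pyruvate dehydrogenase, 10 were lower with HF and 1 higher (median -0.29), or 6 lower and 0 higher without replicate 1 of HF at 6 h. Idh2, the mitochondrial NADP-dependent isocitrate dehydrogenase, was lower by 1.23 (-1.23 ± 0.11, adjusted p 1.29e-06 in limma) and was also lower at 3 h (-0.81). Of 24 genes of import and the inner membrane, 3 were higher and 2 lower, and without replicate 3 of MAZ1310 at 3 h 4 were higher and 5 lower; without replicate 3 of MAZ1310 or either replicate 1 or replicate 2 of HF at 6 h, 2 were higher and 1 lower. Lonp1, the protease of the mitochondrial matrix, was higher by 1.42 ± 0.11 (adjusted p 2.82e-07), and Hspa9, the chaperone of the import motor, by 0.57. Of 20 genes of mitochondrial gene expression and biogenesis, 3 were higher and 3 lower, and these counts rested on single arrays: without replicate 2 of MAZ1310 at 6 h 0 were lower, and over the 12 fits without 1 array 1 to 3 were higher and 0 to 4 lower. Tfam, which packages and transcribes mitochondrial DNA, differed by 0.03, and the coactivator Ppargc1b was lower at 3 h (-0.95, adjusted p 4.01e-05) and differed by -0.14 at 6 h. Of 12 genes of coenzyme Q synthesis, 2 were higher and 3 lower, or 0 to 2 higher and 1 to 4 lower over the fits without 1 array, with 0 higher without any 1 of the MAZ1310 arrays or replicates 1 or 2 of HF at 6 h or replicate 3 of HF at 3 h. Coq7, a hydroxylase of that pathway, was lower by 1.24 (-1.24 ± 0.10, adjusted p 8.5e-07). All 10 genes of the amino acid response were higher with HF at both times, Asns by 2.29 ± 0.17 at 6 h (adjusted p 3.46e-07).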
